A study of Mus musculus with 4 samples.

Results

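The large subunit of the cytosolic ribosome carries a set of proteins whose genes are named Rpl with a number, together with Rplp0, Rplp1 and Rplp2 of the ribosomal stalk. Members were chosen by name: every gene spot of the array whose gene name is Rpl followed by a number, with or without a closing a or l, or one of the 3 stalk names. This gave 82 of 43379 gene spots on each array, which are 73 of 41174 probes under 46 gene names of 27962. Of these probes, 72 of 45 genes were tested, against 24101 tested probes in all. The remaining probe was that of Rpl3l, the muscle paralog of Rpl3, which was not well above background in either channel on any array (0 of 4). The name rule was proposed with the IL-18 ratios of these genes in view, so the ratios below describe the family and test nothing about it.

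The cells were mouse mucosal mast cells, a type found in epithelia, grown and differentiated in vitro. They were treated with interleukin 18 (IL-18), a cytokine related to IL-1 that signals through MyD88, or received no stimulus. For each of the 4 biological replicates, RNA of the treated cells (Cy5) and of the matching untreated cells (Cy3) shared 1 array. The dyes were never exchanged, so treatment and dye cannot be told apart at any probe. The sources used here do not give the mouse strain, the culture conditions, or the dose and length of the treatment.

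The large subunit holds the peptidyl transferase centre, where peptide bonds form, and the tunnel through which the new chain leaves. The mRNAs of its proteins are among the most abundant in a growing cell. Many of these mRNAs begin with a C followed by a run of pyrimidines, the 5′ terminal oligopyrimidine (TOP) sequence, through which growth signalling by mTOR controls their translation. RNA abundance on an array does not show how much of an mRNA is translated.

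The start regions of 8 member genes are shown here because the TOP sequence is the feature that these genes are best known to share, and because their ratios span nearly the whole range of the family. Each line gives 60 bases, from 40 before the annotated start to 20 after it, so that the start is base 41; they are from RefSeq, build GRCm38.p6, written 5′ to 3′ on the strand of the gene. Capitals mark CTTTC wherever it occurs, at the annotated start or away from it.
Rpl38, chr11:114668540-114668599, plus strand: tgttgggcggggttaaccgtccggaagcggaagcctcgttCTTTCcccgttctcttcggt
Rplp2, chr7:141447611-141447670, plus strand: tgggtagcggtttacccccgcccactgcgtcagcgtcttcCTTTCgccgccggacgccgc
Rpl35, chr2:39005112-39005171, minus strand: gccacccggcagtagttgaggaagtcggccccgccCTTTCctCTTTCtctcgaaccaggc
Rpl15, chr14:18270967-18271026, minus strand: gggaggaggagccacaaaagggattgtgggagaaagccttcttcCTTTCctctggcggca
Rpl28, chr7:4792925-4792984, plus strand: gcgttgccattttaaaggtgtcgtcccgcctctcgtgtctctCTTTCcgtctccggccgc
Rpl41, chr10:128549149-128549208, minus strand: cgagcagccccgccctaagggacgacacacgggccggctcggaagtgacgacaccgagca
Rpl12, chr2:32961672-32961731, plus strand: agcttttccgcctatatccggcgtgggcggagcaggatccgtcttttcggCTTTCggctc
Rpl4, chr9:64173347-64173406, plus strand: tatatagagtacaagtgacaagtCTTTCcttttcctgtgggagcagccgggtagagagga

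Among the member genes, 34 had at least 1 start region in the RefSeq table, and 45 windows of 300 bases carried a name of this pattern. The letters CTTTC stood on the sense strand between 20 bases before and 25 after the start in 15 of 45 windows (33.3%) and in 6.09% of all 32851 windows. Anywhere in the window and on either strand they stood in 82.2% and 57.3%. A C at the annotated start followed by 4 pyrimidines stood in 8 of 45 windows (17.8%) and in 2.51% of all windows. CCGGAAG, the letters that ETS factors bind, stood in 33.3% and 8.86% on either strand, and AAGATGG, the letters that YY1 binds, in 13.3% and 6.34%; the last pair of motifs can overlap in the letters AAG. The 14 tested genes with CTTTC near the start had log2 ratios from −0.47 to 1.35 with a median of 0.67, and the 19 without it from −0.47 to 1.45 with a median of 0.38, so the ranges overlapped almost wholly. Rpl41, the gene with the highest ratio, has no CTTTC in the stretch shown, that of Rpl12 lies downstream of the annotated start, and that of Rpl4, among the lowest, lies before it.

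Between 57.9% and 62.7% of all gene spots were well above background in Cy5 and between 49.9% and 54.0% in Cy3, and the log2 ratios of pairs of arrays correlated with r from 0.619 to 0.906 across tested probes, which are not independent replicates. All 10 listed mast cell markers (10 of 10) were well above background in both channels on at least 3 arrays, among them the mucosal chymase genes Mcpt1 and Mcpt2. Of markers of other cells this held for 2 of 5 of T cells, 1 of 4 of B cells, 4 of 4 of macrophages, 1 of 4 of neutrophils, 1 of 4 of eosinophils, 2 of 2 of basophils, 1 of 4 of erythroid cells, 1 of 3 of megakaryocytes and 1 of 3 of dendritic cells. Among these, the basophil protease genes Mcpt8 and Prss34 had log2 ratios of stimulated over untreated cells of 0.41 ± 0.09 and 0.07 ± 0.13 (SD, n = 4). The macrophage genes Adgre1, Cd68, Mrc1 and Csf1r read 0.28 ± 0.17, 0.04 ± 0.11, 0.01 ± 0.09 and −0.16 ± 0.12. The markers of the remaining types that were above background in this way ran from −0.21 ± 0.07 for Itgax to 0.17 ± 0.14 for Cd3e. The mast cell genes themselves ran from −0.74 ± 0.07 for the tryptase gene Tpsb2 to 0.82 ± 0.17 for the chymase gene Cma1. The part of such cells in the values below was not tested. In bulk samples, fewer cells of a type and less RNA per cell cannot be told apart.

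Most members lay above the trend of their array. A log2 ratio of 0 means that the stimulated channel sat on the loess trend of all spots of the same brightness, and 1 means 2-fold above it. The 72 tested probes had a median log2 ratio of 0.41, with quartiles of 0.20 and 0.69 and a range from −0.50 to 1.45, against a median of 0.02 and quartiles of −0.12 and 0.13 over all tested probes. In limma, with an adjusted p under 0.05, 54 member probes were higher in the stimulated channel and 5 lower, while 13 were not called. The same calls covered 18.1% (higher) and 16.1% (lower) of all tested probes, and since these ratios chose the family, nothing is read from the difference. The counts depended on single arrays: without replicate 2 there were 36 higher and 1 lower, and without replicate 3 39 and 1. Over all tested probes the calls fell from 4360 higher and 3871 lower to 1349 and 845 without replicate 2. Without replicate 3 they fell to 1684 and 1237. Among members, Rplp0 alone kept its lower call in both, while Rpl21, Rpl4 and the lower probes of Rpl22 and Rpl7a lost theirs. Scale normalization between arrays left 0 and 0 members called, and 0 and 0 of all probes. Counted as 1 value per gene at its brightest tested probe, 37 of 45 genes were higher, 3 lower and 5 not called, beside 19.7% and 13.7% of 16520 genes. The 5 were Rpl39, Rpl30, Rpl10a, Rpl27a and Rpl28.

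The median over the 72 probes was 0.26 on replicate 1, 0.51 on replicate 2, 0.49 on replicate 3 and 0.48 on replicate 4. Replicate 1 thus stood lowest, and it held the lowest value of the 4 for 45 of 72 probes. Ratios were small on this array beyond the family: over all tested probes the median absolute log2 ratio was 0.067, against 0.131 to 0.188 on the others. On all 4 arrays 58 probes were above 0 and 6 below it; of all tested probes with 4 values, 33.4% were above 0 and 24.9% below 0 on every array. Replicate 4 divided the members: it held the highest value for 25 probes and the lowest for 18. The SD over arrays had a median of 0.14 over member probes and 0.10 over all tested probes.

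**Figure D1:**
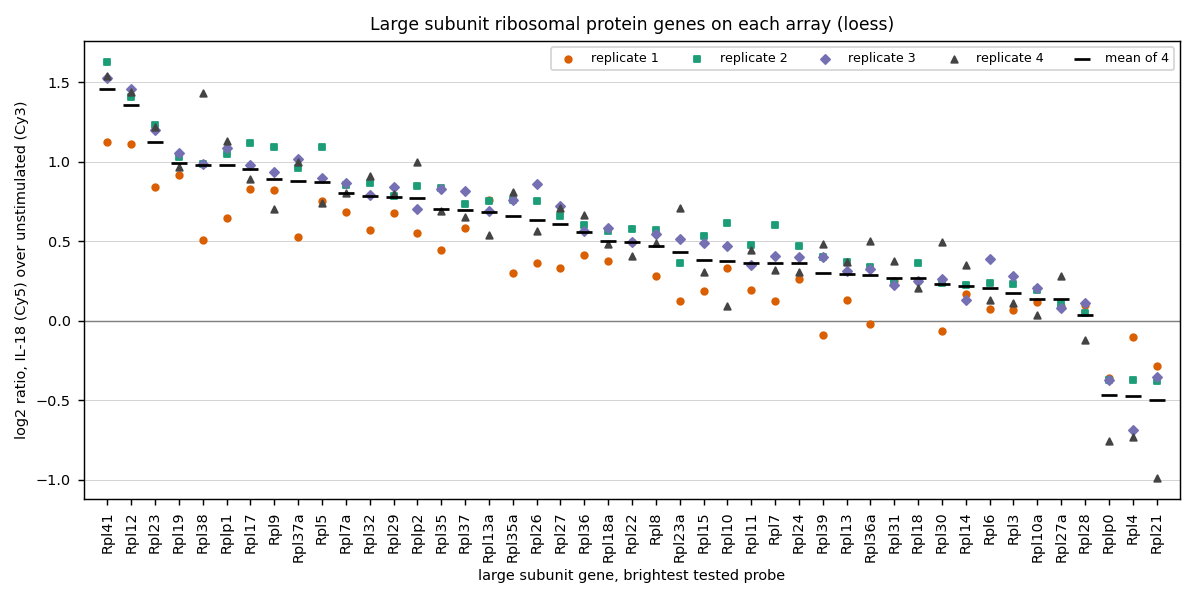
Log2 ratio of IL-18 (Cy5) over unstimulated (Cy3) on each of 4 arrays for the 45 tested genes at their brightest probe, ordered by mean; the bar is the mean of 4. Rpl41 and Rpl12 lie above 1 on every array, replicate 1 often lies lowest, and Rplp0, Rpl4 and Rpl21 lie below 0 on every array.

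Most member probes were among the brightest of the array, where the loess trend rests on few probes. Brightness, the mean log2 intensity over both channels and all arrays, had a median of 15.51 over members and 8.83 over all tested probes. 98.8% of tested probes were dimmer than the members' median, and 30 of the 200 brightest tested probes were members. Before loess, the Cy5 over Cy3 ratio rose with brightness on every array. The plain background-subtracted log2 ratio minus the final loess ratio had a median of 1.31 to 1.65 over member spots. Over all gene spots this median was −0.28 to −0.19. The difference includes the background correction and its offset as well as the loess trend. Members held 5.29% to 5.76% of the background-subtracted signal of all gene spots in Cy5 and 3.33% to 3.42% in Cy3.

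Other bright probes also lay above 0 after loess. Of the 151 tested probes with a brightness of 16 or more, 25 were members with a median log2 ratio of 0.77, 26 were small subunit probes with a median of 0.66, and the other 100 had a median of 0.37. In this range 78.1% of all probes were called higher and 23 of the 25 members. Between 15 and 16, 21 members had a median of 0.38 and the 293 probes of neither subunit 0.14. Between 14 and 15, 8 members had a median of 0.19 and the 611 others −0.03. Among members, the ratio and the brightness had a Spearman rho of 0.55 over 72 probes, which share arrays and a trend curve; with the scanner software's ratio it was 0.12, and over all tested probes with loess 0.01. How much of the members' ratios comes from the fit of the curve at its bright end was not tested.

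**Figure D2:**
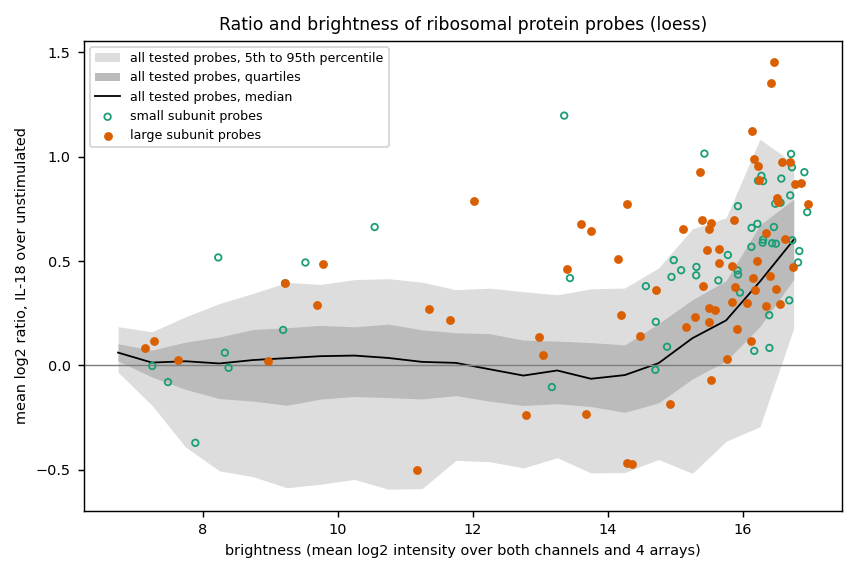
Mean log2 ratio over 4 arrays against brightness for 72 large subunit probes (filled) and 55 small subunit probes (open); grey bands give the quartiles and the 5th to 95th percentile of all 24101 tested probes in bins of brightness, and the line their median. The line itself turns upward above a brightness of 15, where most members lie.

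The scanner reads very bright spots at a lower gain and scales them up. This was so for 65 or 66 of the 82 member spots in Cy5 and for 40 to 46 in Cy3, depending on the array. No member spot (0) was saturated or marked as an outlier. The 39 probes read at low gain in both channels on all 4 arrays had a median of 0.49 with 35 called higher, where 56% of the 375 tested probes of the array read that way were called higher. The 14 never read at low gain had a median of 0.13 with 6 called higher, beside 17% of 22520 such probes. The 8 read so in Cy5 alone on all arrays had a median of 0.43 with 6 called higher, beside 28.8% of 652. The 11 with other patterns had a median of 0.46 with 7 called higher and 2 lower, beside 24.2% and 27.6% of 554. Of all probes read at low gain in both channels, in Cy5 alone and in neither, 14.9%, 20.9% and 15.7% were called lower, against 0, 1 and 2 members. Gain and brightness move together here, and their part in the ratios was not tested.

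The way the ratio was made moved every member. With the scanner software's own background and dye correction the median over member probes was 0.29, 61 of 72 probes lay above 0, and 39 of the 54 probes called higher with loess were still so, while that software called 26.4% of all probes higher and 21.1% lower. With each array centred on its median and no removal of the trend, all 72 lay above 0, from 0.08 to 2.96 with a median of 1.78, and 69 were called higher, beside 58% of all probes (0.73% lower). Median centring moved the median of all tested probes to 0.43, and the software's ratio moved it to 0.05, so the members lay above the other probes by different amounts under each. The order of the members changed less: the loess ratios correlated with the software's at rho = 0.86 and with the centred ones at rho = 0.91 over 72 probes. Directions given for single genes below are relative to the loess trend.

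**Figure D3:**
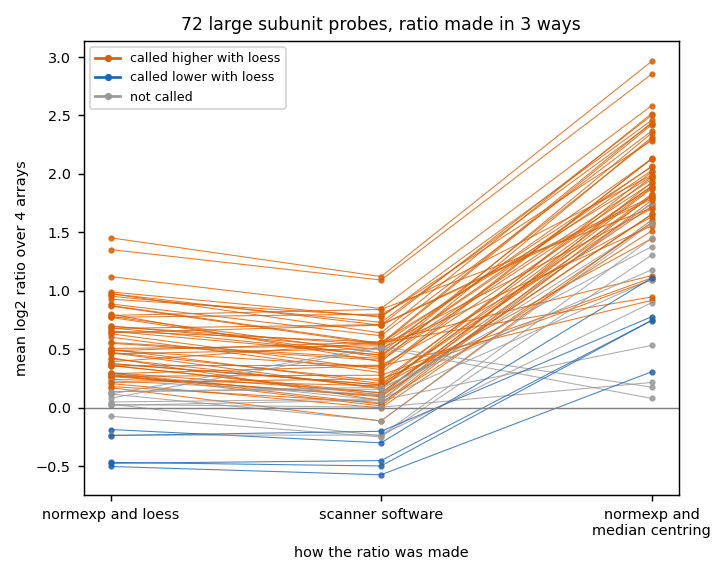
Mean log2 ratio of each of the 72 large subunit probes, joined by a line across 3 ways of making the ratio; colours give the call with loess. The 5 probes called lower with loess stay below 0 with the scanner software and lie above 0 with median centring.

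The stalk of the large subunit recruits the translation factors that hydrolyse GTP. It consists of Rplp0, which binds the ribosomal RNA, and of dimers of Rplp1 and Rplp2 attached to it, with Rpl12 at its base. Rplp1 read 0.64, 1.05, 1.08 and 1.13 on replicates 1 to 4, a mean of 0.98 ± 0.22 (SD, n = 4) or 1.97-fold. Rplp2, which has the TOP-like start shown above, read 0.55, 0.85, 0.70 and 1.00, a mean of 0.77 ± 0.19 or 1.71-fold. Replicate 1 was the lowest for both, and no array was below 0.

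Rpl12 read 1.11, 1.41, 1.46 and 1.44, a mean of 1.35 ± 0.16 (SD, n = 4) or 2.56-fold. Its background-subtracted intensity was 246120, 249225, 227736 and 255750 in Cy5 and 32105, 34973, 28831 and 28474 in Cy3 on replicates 1 to 4. The stimulated channel was thus several times the brighter one on every array: the log2 ratio before loess averaged 2.98, of which loess left 1.35. With the scanner software Rpl12 read 1.09 and with median centring 2.85.

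Rplp0 gave the opposite sign at the probe that carries its name. This probe is printed 10 times on each array, and its means were −0.36, −0.37, −0.37 and −0.76 on replicates 1 to 4. The spots of 1 array agreed closely, with an SD over 10 spots from 0.018 to 0.038, and on replicate 4 they ran from −0.84 to −0.71, below every spot of the other 3 arrays. The mean over arrays was −0.47 ± 0.19 (SD, n = 4), or 0.72 of the trend. Its software ratio was −0.50, while median centring turned it to 0.75.

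A pair of other probes, named Arbp on the array, have an accession that RefSeq gives to Rplp0. They read 0.38, 0.47, 0.30 and −0.03 (mean 0.28 ± 0.22; SD, n = 4) and 0.02, 0.19, 0.18 and 0.35 (mean 0.18 ± 0.13). Only the former was called, as higher. These probes had a brightness of 16.44 and 16.36, and the probe named Rplp0 one of 14.29. Probes of neither subunit had a median of 0.37 at a brightness of 16 or more and −0.03 between 14 and 15. The probe named Rplp0 has an accession that was not matched in the RefSeq table, and the array describes it as a partial coding sequence of this protein. Which of these probes measures the Rplp0 transcript was not tested.

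Rpl5 and Rpl11 bind the 5S ribosomal RNA together, and outside the ribosome the particle restrains Mdm2, the ubiquitin ligase of p53. Rpl5 read 0.75, 1.09, 0.90 and 0.74, a mean of 0.87 ± 0.16 (SD, n = 4) or 1.83-fold. Rpl11 read 0.19, 0.47, 0.35 and 0.44 at its brightest probe, a mean of 0.36 ± 0.13 or 1.29-fold, and its second probe read 0.29 ± 0.20. The 4 values of Rpl5 all lay above those of the bright Rpl11 probe. With the software's ratio Rpl5 read 0.54 and Rpl11 0.11.

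At the exit of the tunnel sit Rpl23a, Rpl26 and Rpl35, the first of which is a docking site for factors that receive the new chain. Rpl23a read 0.13, 0.36, 0.51 and 0.71 at its brightest probe (0.43 ± 0.25; SD, n = 4) and 0.28, 0.64, 0.51 and 0.78 at the other (0.55 ± 0.21). Replicate 1 was lowest and replicate 4 highest at both probes. Rpl26 read 0.36, 0.75, 0.86 and 0.56, a mean of 0.63 ± 0.22 or 1.55-fold. Rpl35 read 0.44, 0.84, 0.83 and 0.69, a mean of 0.70 ± 0.18 or 1.62-fold.

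Rpl4 and Rpl17 narrow the tunnel inside the subunit from opposite sides, and Rpl39 lines its lower part. These 3 differed more than those at the exit. Rpl4 read −0.10, −0.37, −0.69 and −0.73, a mean of −0.47 ± 0.29 (SD, n = 4). Its Cy5 intensity of 36571, 29178, 22000 and 26811 still exceeded its Cy3 intensity of 14260, 16516, 14486 and 16303 on every array, so the sign is that relative to the trend, and median centring gave 0.75.

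Rpl17 read 0.83, 1.12, 0.98 and 0.89, a mean of 0.95 ± 0.12 (SD, n = 4), and its second probe read 0.93 ± 0.15, the closest agreement of any gene with more than 1 tested probe. Rpl39 read −0.09, 0.40, 0.40 and 0.48, a mean of 0.30 ± 0.26 that was not called. A single array, replicate 1, stood on the other side of 0. Its paralog Rpl39l and Rpl10l, the paralog of Rpl10, are not names on this array.

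Rpl3 and Rpl10 reach toward the peptidyl transferase centre, and Rpl10 joins the subunit last, in the cytoplasm. Rpl3 read 0.07, 0.23, 0.28 and 0.11, a mean of 0.17 ± 0.10 (SD, n = 4) or 1.13-fold, and turned to −0.11 with the software's ratio. Rpl10 read 0.33, 0.61, 0.47 and 0.09 at its brightest probe (0.38 ± 0.22) and 0.16, 0.47, 0.43 and 0.04 at the other (0.27 ± 0.21). Both Rpl10 probes were lowest on replicate 4, where Rpl23a was highest.

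Some members are also known for work outside the ribosome. Rpl13a, which in inflamed myeloid cells can leave the ribosome and repress translation of inflammatory mRNAs, read 0.76, 0.75, 0.69 and 0.54, a mean of 0.68 ± 0.10 (SD, n = 4) or 1.61-fold. Its lowest array was replicate 4, and with the software's ratio it read 0.45. Rpl22, which is dispensable for most translation and needed in developing T cells, read 0.49, 0.57, 0.49 and 0.41 at its brightest probe (0.49 ± 0.07). Its second probe went the other way, at −0.06, −0.19, −0.26 and −0.43 (−0.24 ± 0.15), and with median centring it read 0.78.

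The highest ratio of the family was that of Rpl41, which encodes an extremely short basic peptide at the interface of the subunits. It read 1.12, 1.63, 1.52 and 1.54, a mean of 1.45 ± 0.22 (SD, n = 4) or 2.74-fold. Intensities were 295655, 264193, 237262 and 253472 in Cy5 and 37048, 31845, 28643 and 26497 in Cy3, a mean ratio before loess of 8.51. Rpl41, Rpl12 and the bright probe of Rpl23 were the 3 members with a mean of at least 1, out of 38 such probes on the whole array.

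Next in order came Rpl19 at 0.99 ± 0.06, Rpl38 at 0.98 ± 0.38, Rplp1, Rpl17 and Rpl9 at 0.89 ± 0.17 (SD, n = 4). Rpl38, a gene known from the tail-short mouse and from the translation of Hox mRNAs, read 0.51, 0.98, 0.98 and 1.43, the largest SD of any member. Its Cy3 intensity was 46683, 45383, 38628 and 28968, lowest on replicate 4, while Cy5 was 243708, 244226, 222736 and 259694. Rpl9 read 0.82, 1.09, 0.94 and 0.70 and Rpl19, an exit-side protein that also bridges to the small subunit, 0.92, 1.03, 1.05 and 0.97. The neighbours from Rpl19 to Rpl9 in this order do not differ beyond their spread over arrays.

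At the other end, Rpl21 read −0.28, −0.38, −0.35 and −0.99, a mean of −0.50 ± 0.33 (SD, n = 4), and 0.31 with median centring. The array assigns that probe to a predicted transcript. A second tested probe of Rpl21, assigned to a curated transcript, was dim and read 0.03 ± 0.06. Outside the name rule, a pair of brighter probes described on the array as ribosomal protein L21 read 0.60 ± 0.05 and 0.49 ± 0.07. Both were called higher. Which of these probes measures the Rpl21 transcript was not tested. Rpl28 read 0.10, 0.05, 0.11 and −0.12 (0.03 ± 0.11) although its start region shows a TOP-like sequence. The software's ratio put Rpl28 at −0.24, below 0 on 4 of 4 arrays, and there it was called lower. Rpl27a read 0.09, 0.10, 0.08 and 0.28 (0.14 ± 0.10), and its second, dimmer probe 0.39 ± 0.06, which was called higher. Rpl10a read 0.12, 0.19, 0.20 and 0.04 (0.14 ± 0.08) and Rpl6 0.07, 0.24, 0.39 and 0.13 (0.21 ± 0.14). With loess, at their brightest probes, Rpl6 was called higher and Rpl28, Rpl27a and Rpl10a were not called. With the software's ratio Rpl6 stood at −2.76e-04.

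Probes of the same gene often differed. Of the 20 genes read by several tested probes, 11 were higher at each of them, and 2, Rpl7a and Rpl22, had probes called in both directions. The gap between the highest and the lowest probe had a median of 0.24 and ran from 0.026 to 1.07, and in 8 genes it was at least 0.5. The brightest probe had the highest ratio in 11 of the 20. Among the 8 genes with a gap of at least 0.5, this held for all but Rpl21. Ribosomal protein genes have many near-identical processed pseudogenes, and which copies a probe reads could not be checked, since probe sequences were not used here.

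The widest gap was that of Rpl23, with 0.84, 1.23, 1.20 and 1.22 (1.12 ± 0.19; SD, n = 4) at the bright probe and −0.04, 0.03, 0.01 and 0.19 (0.05 ± 0.10) at the other. Rpl7a had 3 tested probes: 0.68, 0.85, 0.86 and 0.80 (0.80 ± 0.08) at the brightest, −0.07 ± 0.22 at the next, and −0.24, −0.16, −0.23 and −0.11 (−0.19 ± 0.06) at the dimmest. The values of the brightest and the dimmest probe of Rpl7a did not overlap on any array. With median centring the dimmest read 1.11 and the brightest 2.31.

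Rpl19 read 0.18 ± 0.06 at its second probe, against 0.99 at the brightest. Rpl37 read 0.70 ± 0.10 and, at a probe near background, 0.08 ± 0.07, and Rpl35a read 0.66 ± 0.24, 0.46 ± 0.19 and, near background, 0.12 ± 0.05 (SD, n = 4). Ratios near background are pulled toward 0 by the offset that the background correction adds. Rpl7 read 0.36 ± 0.20, 0.30 ± 0.25 and −0.23 ± 0.23, the last at a probe far above background.

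The opposite case is Rpl29, named here after its values were seen, with 4 probes at 0.77 ± 0.07, 0.64 ± 0.03, 0.68 ± 0.04 and 0.79 ± 0.06 (SD, n = 4). Their brightness ran from 12.02 to 14.28, well below that of most members, and all 4 were called higher. Their software ratios, 0.71 to 0.84, were close to those with loess. In these probes the ratio did not grow with brightness.

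**Figure D4:**
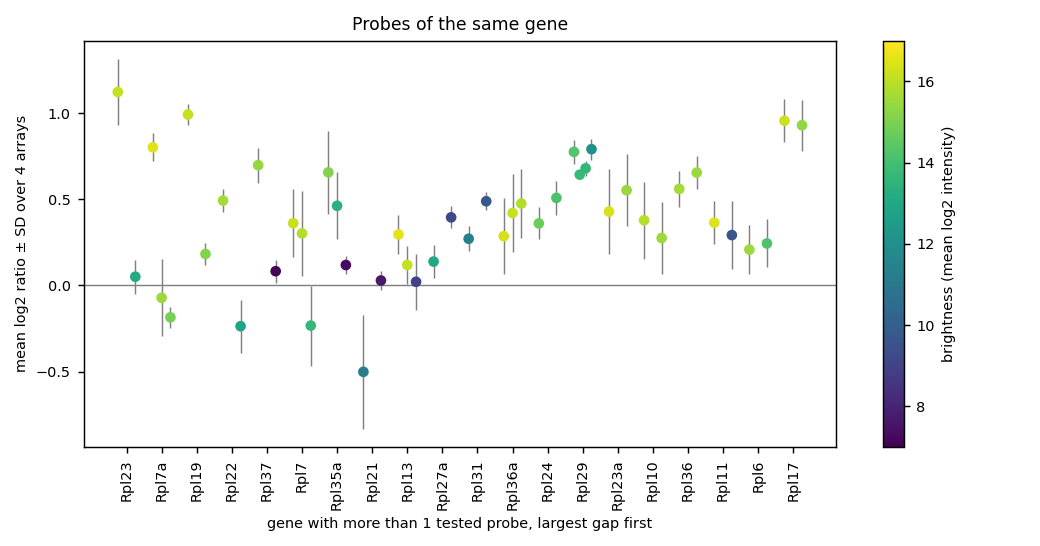
Mean log2 ratio ± SD over 4 arrays for every tested probe of the 20 large subunit genes with more than 1, ordered by the gap between their probes and coloured by brightness. Rpl23 and Rpl7a show the widest gaps; the 4 probes of Rpl29 and both of Rpl17 lie close together.

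The name rule leaves out probes of the same family under other names. By RefSeq accession, the gene named 1100001I22Rik on the array is Rpl34, and its probes read 1.08 ± 0.13 and 0.52 ± 0.10 (SD, n = 4). A further 39 tested probes are described on the array as a cytosolic ribosomal protein L without such a gene name, many of them predicted loci; 22 were called higher and 3 lower (18.1% and 16.1% of all probes), with a median of 0.29 and a range from −0.26 to 0.90. The paralogs Rpl22l1 and Rpl7l1 had 4 tested probes between −0.18 and −0.07, none of them (0 of 4) called.

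Other genes of the ribosome were read from lists, at the brightest tested probe of each gene. Of 33 small subunit genes 30 were called higher, none (0) lower and 3 not, with a median of 0.59, beside the members' gene median of 0.49 and 0.04 over all genes. Over all genes 19.7% were called higher and 13.7% lower, and the counts of each list stand against these shares. Rps6, the substrate of the growth kinase S6K, read 1.06, 1.06, 0.99 and 0.96 (1.02 ± 0.05; SD, n = 4), Rps28 0.95 ± 0.32 and Rps23 0.93 ± 0.23. Whether the subunits differ was not tested, since both lists were chosen with these ratios known.

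Of 20 genes whose mRNAs carry a TOP sequence without encoding ribosomal proteins, 9 were called higher and 2 lower, beside 19.7% and 13.7% of all genes, with a median of 0.16. Gnb2l1, which encodes the ribosome-bound scaffold RACK1, read 0.57, 0.96, 0.98 and 0.94 (0.86 ± 0.19; SD, n = 4) and Eef1b2, the exchange factor of elongation factor 1, 0.83 ± 0.15. Eef2, the translocase of elongation, read −0.69, −0.77, −0.73 and −1.45 (−0.91 ± 0.36), and 0.25 with median centring. Like Rplp0 and Rpl21, Eef2 was lowest on replicate 4 by a wide margin.

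The mitochondrial ribosome is built from a separate set of nuclear genes. Of 46 genes of its large subunit 16 were called higher, 4 lower and 26 not, beside the same 19.7% and 13.7%, with a median of 0.07. Mrpl21 read 0.46 ± 0.01, Mrpl48 0.42 ± 0.11 and Mrpl32 0.42 ± 0.06 (SD, n = 4).

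Of 38 genes of ribosome biogenesis, whose products make and assemble the subunits in the nucleolus, 4 were called higher and 11 lower, again beside 19.7% and 13.7% of all genes, with a median of −0.08. Ncl, which encodes the nucleolar protein nucleolin, read −0.68, −0.71, −0.70 and −1.37 (−0.87 ± 0.34; SD, n = 4), Nolc1 −0.67 ± 0.21 and Gar1, of the pseudouridylation particles, −0.63 ± 0.06. Of 19 genes of growth signalling to the ribosome 2 were called higher and 5 lower, beside those same shares, with a median of −0.04. Rptor, the mTORC1 subunit raptor, read −0.22, −0.85, −0.76 and −1.50 (−0.83 ± 0.53), Maf1, the repressor of RNA polymerase III, −0.53 ± 0.11 and Eif4ebp2 −0.42 ± 0.13.

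With median centring every list had a median above that of all genes, which was then 0.53: 0.88 for biogenesis, 1.01 for growth signalling, 1.10 for the mitochondrial subunit, 1.38 for the TOP list, 1.95 for the large and 2.09 for the small subunit. All the lower genes named from these lists turned positive under it, except Rptor at −0.59. With the software's ratio the medians were −0.11, −0.10, 0.08, 0.11, 0.30 and 0.32 in the same order, beside 0.08 over all genes.

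**Figure D5:**
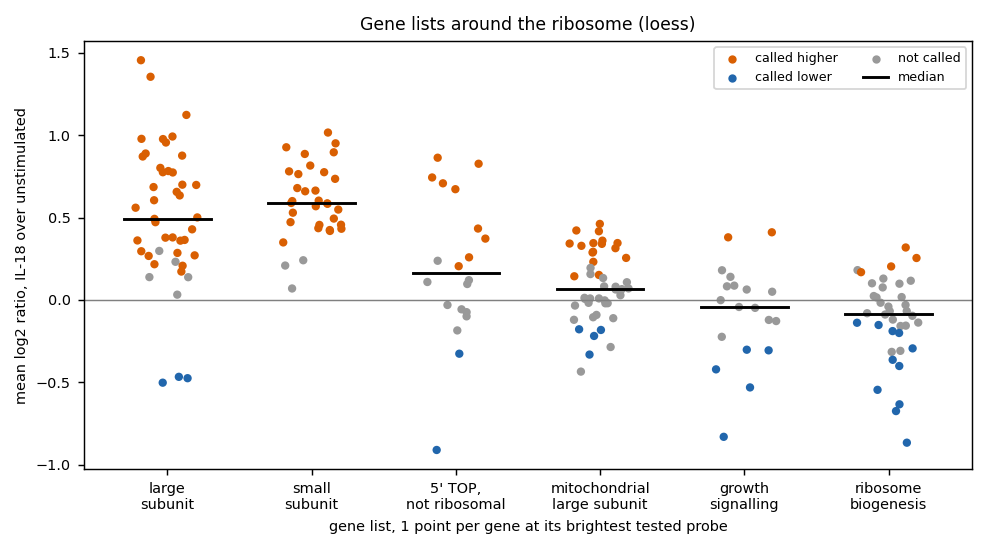
Mean log2 ratio over 4 arrays of each gene at its brightest tested probe in 6 gene lists, with colours for the call and a bar for the list's median. Rplp0, Rpl4 and Rpl21, lower at the probe shown, stand apart from the rest of the large subunit list. Other, brighter probes that RefSeq or the array assigns to Rplp0 and L21 read above 0. The biogenesis and growth signalling lists have their medians just below 0.

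The probes outside the family whose 4 values lay closest to the members' median on each array were those of Eif1, an initiation factor that selects the start codon, at a mean absolute difference of 0.015, Rps27l, a paralog of a small subunit protein, at 0.019, Crip1 at 0.030, a probe named 5031425E22Rik at 0.031 and Snrpg, a core protein of the spliceosome, at 0.032. Eif1 read 0.27, 0.49, 0.49 and 0.49. With 24101 probes and 4 arrays, close values arise easily, and this likeness is a description of 4 points.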

How the data were processed

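Mean spot intensities and median local background intensities in both channels were used as deposited; per the file headers, the authors' scanner software had not corrected these columns. The deposited files also hold the software's log10 ratio of Cy5 over Cy3 after its own background and dye correction, as does a deposited table of the whole series; both were turned to log2 and used as alternatives only. The software was Agilent Feature Extraction 9.1, per the submitters' processing notes.

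Background was corrected with normexp (offset 50), log2 ratios were normalized by loess within each array with control and outlier spots at weight 0, and replicate spots were averaged into 1 value per probe. Probes entered the test if 1 of the channels was well above background on at least 3 of the 4 arrays. Ratios were tested against 0 with limma 3.58.1 in R 4.3.3 (intercept and eBayes, two-sided, Benjamini-Hochberg over 24101 probes, threshold 0.05). Each ratio is a difference within 1 array, so the test is paired by replicate. The p-values measure the spread between the 4 biological replicates, and the number of arrays limits the precision. Since the stimulated sample was in Cy5 on every array, they do not separate treatment from dye. The steps were checked on simulated arrays.

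The members and the gene lists were chosen with earlier results of these data known. Named were the 8 highest and 8 lowest genes at the brightest probe, up to 8 genes whose probes differed by at least 0.5, members with a known special role, up to 3 called genes of each list with the largest ratios, and the 5 nearest probes outside the family. Of the members' 73 accessions, 66 were matched in the RefSeq table (GRCm38.p6), all under the same symbol. Probe and protein sequences were not used here. Alternatives were other corrections, normalizations, filters and variance models, the slide as a block, an unpaired fit, each replicate left out, 1 value per gene, and wider or narrower membership.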

Additional observations from a re-analysis of the deposited data

Results flagged for a closer look

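In 12 of the 72 member probes 1 array stood far from the other 3, by a gap to the nearest array that exceeded Dixon's 95% critical share of the whole range; chance alone marks about 1 in 20 such groups. The share of the range taken by the gap was 0.912 for Rpl23 (bright probe), 0.902 for Rpl35a, 0.885 for Rpl37a, 0.881 for Rpl27a, 0.868 for Rpl36a, 0.864 for Rpl21, 0.862 for Rpl39, 0.853 for Rpl12, 0.844 for Rpl27, 0.841 for Rplp1, 0.837 for Rpl31 and 0.972 for Rplp0. The far array was a low replicate 1 for Rpl23, Rpl35a, Rpl37a, Rpl36a, Rpl39, Rpl12, Rpl27 and Rplp1, a low replicate 4 for Rplp0 and Rpl21, and a high replicate 4 for Rpl27a and Rpl31. These probes share arrays and a trend curve for each array, so the marks are not independent of one another. Replicate 1 also had the smallest median absolute log2 ratio over all tested probes, 0.067 against 0.131 to 0.188.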

How the results depend on the processing

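The members' median log2 ratio of 0.41 was positive under every alternative run, and moved by more than its SD over arrays only with median centring, to 1.78. Median centring left no member probe lower (0 in limma, 0 also at an unadjusted p under 0.05) and called 13971 probes of the array higher and 176 lower in place of 4360 and 3871. It turned 7 named probes positive: Rplp0 0.75, Rpl21 0.31, Rpl4 0.75, Rpl22 0.78 and Rpl7a 1.11, which had been called lower, and the uncalled dimmest Rpl7 probe 0.90 and middle Rpl7a probe 1.31. The software's ratio turned Rpl3 to −0.11, Rpl6 to −2.76e-04 and Rpl28, uncalled with loess, to −0.24, where Rpl28 was called lower. The deposited table of the series gave −0.11, −2.82e-04 and −0.24. Scale normalization between arrays left no call in limma (0 higher and 0 lower among members, 0 and 0 over all probes), with 22 and 3 member probes of 2392 and 3480 in all at an unadjusted p under 0.05; it multiplied replicate 1 by 4.10 and the others by 0.56 to 0.69, since the median absolute ratio over all spots was 0.016 on replicate 1 and 0.094 to 0.117 on the others. Leaving out 1 replicate gave 36 to 55 member probes higher and 1 to 5 lower, a median of 0.39 to 0.47, and 1349 to 4580 probes of the array higher and 845 to 5045 lower. Without replicate 2 there were 36 higher and 1 lower member probes and 1349 and 845 of all, and without replicate 3 39 and 1 and 1684 and 1237; the 1 was Rplp0 each time. The fit without the replicate block, which ignores the pairing within the array, gave 50 higher and 4 lower with a median of 0.41, and the slide as a block 55 and 5, with slide medians of 0.36 and 0.44. With 1 value per gene 3 genes were lower, both at the brightest probe and for the mean of probes. With only probes read at the same gain in both channels, 2 member probes were lower and 41 higher. That alternative was added after seeing the data. In the main fit, 56% of all 375 probes read at low gain in both channels were called higher and 14.9% lower. Of the 22520 read so in neither, 17% were called higher and 15.7% lower. Over 41 named probes and 15 alternatives, 508 values stayed within 1 SD of the main value, 96 moved further with the same sign or no call, and 9 of called probes turned sign, or 17 with those not called; 2 probes drop out where both channels must be above background on all arrays.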
